A study of Caenorhabditis elegans with 2 samples.

Results

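The ceh genes, named for C. elegans homeobox, are a large share of the homeobox transcription factor genes of this worm, and 57 of them were examined as places where CEH-6 may sit on chromatin. The members were all protein-coding genes of the WBcel235 annotation whose name is ceh- and a number. The 6 symbols ceh-6, ceh-18, ceh-13, ceh-20, ceh-40 and ceh-60 were left out by the rule, so no other POU gene, Hox gene or TALE cofactor gene of this name series is among them. The 57 are part of the 19973 protein-coding genes of the nuclear genome. They lie on all 6 nuclear chromosomes, with 15 on X, 13 on II, 12 on V, 7 on I, 6 on III and 4 on IV. The rule used names alone and no measured value, but it was set with earlier results of these data known.

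A homeobox gene encodes a transcription factor that binds DNA through a homeodomain. CEH-6 belongs to the POU class, whose second DNA-binding domain, the POU-specific domain, lets such factors read the longer octamer motif ATGCAAAT. In C. elegans many ceh genes are expressed in small sets of neurons and some in pharynx, epidermis or mesoderm, and homeodomain factors often regulate the genes of other homeodomain factors. CEH-6 itself is known from the excretory canal cell, rectal epithelial cells and some neurons.

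The series holds chromatin immunoprecipitation with sequencing (ChIP-seq) from 1 group, in 2 biological replicates. The worms were of strain OP748, which carries the transgene wgIs748, a ceh-6 construct tagged at its C terminus with TY1, EGFP and 3xFLAG together with unc-119(+), in an unc-119 (ed3) and VC2010 background. Both samples were late embryos taken whole, the sexes mixed, with an age given as 3.3 hours and egg bleaching as the means of synchronisation, and the immunoprecipitation used an antibody against GFP. No other genotype, stage or antibody is among them, so nothing below compares groups of samples, and whole embryos cannot tell in which cells a region was bound.

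The authors' values are a signal per region, relative to 1 control and on a scale that is not stated. Each replicate and the reads of both replicates together (the pooled list) gave 30000 regions, from rank 1, the highest signal, downwards. The 741 peaks left by the irreproducible discovery rate procedure (IDR peaks) are the 741 highest regions of the pooled list, with signals of 105.7 and more. The pooled list runs down to a signal of 28.9, with a median of 40.4, so most of its regions are weak. The replicates' signals are on their own scales, with medians of 19.7 in replicate 1 and 26.2 in replicate 2, and only ranks within a list are set side by side. Read depth is unknown.

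A region was given to a gene when its summit, the base of highest signal, lay between 5000 bp upstream of the gene and the gene's end and had that gene's transcript start as its nearest coding start. Of the 57 members, 47 had at least 1 pooled region, and together they had 93. Replicate 1 gave 90 regions at 41 members, and replicate 2 gave 85 at 44 members.

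The reference sequence under the best regions is shown first, because it is what lies under the strongest signals. None of the 93 summits had the octamer within 100 bp, against 1.84% of all 30000 pooled regions, a difference that 93 regions cannot show. The sequences are those of the RefSeq copy of WBcel235, 100 bp to each side of the summit (201 bp), on the strand of the gene and from 5′ to 3′. Shown are ceh-38, the member with an IDR peak, the next 3 members by rank (ceh-54, ceh-32 and ceh-39), and ceh-58 and ceh-21, whose windows hold near matches to the octamer and a short repeat. Capitals mark bases that match the octamer on either strand with 1 mismatch in ceh-38 and ceh-58, and the repeated 8-mer CCTGAGGG in ceh-21.
ceh-38 (chrII:6951495-6951695, plus strand): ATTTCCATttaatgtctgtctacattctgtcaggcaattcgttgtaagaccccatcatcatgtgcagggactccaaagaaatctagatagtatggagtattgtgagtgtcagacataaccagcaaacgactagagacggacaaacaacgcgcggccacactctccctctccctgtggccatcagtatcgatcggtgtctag
ceh-54 (chrX:6193886-6194086, minus strand): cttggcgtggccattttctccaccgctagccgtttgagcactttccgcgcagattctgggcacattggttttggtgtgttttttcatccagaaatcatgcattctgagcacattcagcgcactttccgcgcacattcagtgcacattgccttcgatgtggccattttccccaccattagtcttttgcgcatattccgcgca
ceh-32 (chrV:11705463-11705663, minus strand): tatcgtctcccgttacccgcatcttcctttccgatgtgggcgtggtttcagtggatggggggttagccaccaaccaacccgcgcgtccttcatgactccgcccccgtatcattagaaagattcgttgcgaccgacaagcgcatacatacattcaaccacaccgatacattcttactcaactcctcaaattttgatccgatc
ceh-39 (chrX:1856268-1856468, minus strand): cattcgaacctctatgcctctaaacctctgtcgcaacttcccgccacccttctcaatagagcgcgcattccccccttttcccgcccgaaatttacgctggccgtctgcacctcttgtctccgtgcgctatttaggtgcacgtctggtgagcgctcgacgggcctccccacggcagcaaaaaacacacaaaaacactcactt
ceh-58 (chrII:10373611-10373811, minus strand): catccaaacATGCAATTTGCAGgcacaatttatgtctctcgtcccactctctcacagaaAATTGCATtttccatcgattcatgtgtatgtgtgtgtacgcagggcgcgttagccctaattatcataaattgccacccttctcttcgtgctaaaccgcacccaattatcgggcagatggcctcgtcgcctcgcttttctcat
ceh-21 (chrX:1850757-1850957, minus strand): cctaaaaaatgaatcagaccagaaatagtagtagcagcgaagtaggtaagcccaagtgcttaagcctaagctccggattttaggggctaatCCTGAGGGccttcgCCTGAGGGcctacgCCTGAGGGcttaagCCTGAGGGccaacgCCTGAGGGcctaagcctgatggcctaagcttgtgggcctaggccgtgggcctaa

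Substitutions are counted from 1 at the 5′ end of the octamer ATGCAAAT, with the octamer's base first. The near match at ceh-38 reads ATGGAAAT on the opposite strand (C4G) and lies at the edge of the window, 96 bp from the summit. The window upstream of ceh-58 holds 3 near matches. Of these, the A7T form 87 bp from the summit lies on the strand shown, overlapping the A1C form 82 bp from it on the opposite strand. The remaining A7T form, also on the opposite strand, is the nearest to the summit, at 37 bp. In the ceh-21 window CCTGAGGG occurs 5 times, and in the ceh-54 window TCCGCGCA occurs 3 times. An 8-mer present at least 3 times was found in 15 of the 93 windows of members and in 17.7% of all 30000 pooled windows.

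Only ceh-38 had an IDR peak, so 1 of 57 members did (1.75%, exact 95% interval 0.0444 to 9.39%), against 2.81% of all protein-coding genes. Its share is near that background. ceh-38 encodes a factor of the cut class with a Onecut-type homeodomain. Its pooled region (chromosome II, 6951390 to 6951799) had a signal of 147 and rank 382, and its summit lay 24 bp upstream of the annotated start. The region at that place ranked 291 in replicate 1 with a signal of 73.1, and 551 in replicate 2 with a signal of 75.1, so both replicates held it among their 741 highest. The replicates' own summits lay 9 bp and 45 bp inside the gene, in the 5′ UTR, and replicate 1 had another region 70 bp inside it at rank 1876. The start of malt-1, a gene for a paracaspase, was 295 bp from the pooled summit, so 2 coding starts lie close to the region and its assignment to ceh-38 rests on distance.

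Across all genes, 1.86% had a region among the 741 highest of both replicates, and ceh-38 was the 1 member that did. No gap separates the IDR peaks from the rest at the limit, where the last peak had a signal of 105.7 and the next region 105.6. The best member outside the IDR set followed at a signal of 99.2.

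At ceh-54, ceh-32 and ceh-31, which with ceh-39 follow by rank, both replicates placed the best region within their 3000 highest. The region of ceh-54 (chromosome X, 6193781 to 6194190) had a pooled signal of 99.2 and rank 872, with rank 900 in replicate 1 and 2054 in replicate 2. Its summit lay in an intron, 255 bp inside the gene. ceh-32 encodes a factor of the sine oculis family and is known for its part in the development of the head. Its best region (chromosome V, 11705358 to 11705767) had signal 86.7 and rank 1285, with rank 1798 in replicate 1 and 1946 in replicate 2. Its summit was 163 bp upstream of the start and inside the annotated non-coding RNA gene W05E10.12.

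ceh-31, a BarH-type gene, had its best region (chromosome X, 3070215 to 3070624) at signal 76.9 and rank 1916, with ranks of 2847 and 2411 in replicates 1 and 2. This summit sat 2 bp inside the annotated start, in the 5′ UTR.

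At 5 other members of the top 3000 the replicates stood apart. ceh-39, a cut-class gene known as an X-signal element in sex determination, had signal 82.3 and rank 1505 at a summit 196 bp upstream (chromosome X, 1856163 to 1856572). That place ranked 833 in replicate 2 but 17261 in replicate 1. ceh-43, the orthologue of Distal-less, acts in anterior epidermis and in dopaminergic neurons. Its best region (chromosome III, 4450901 to 4451310), 1163 bp upstream, had signal 76.8 and rank 1928, against rank 4184 in replicate 1 and 1270 in replicate 2.

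The region of ceh-58 lay far upstream, 4114 bp from the start (chromosome II, 10373506 to 10373915), with signal 73.0 and rank 2268. It ranked 847 in replicate 2, and no region of replicate 1 covered it. Replicate 1 had another ceh-58 region at rank 2332, in a coding exon 332 bp inside the gene. The cut-class gene ceh-21 had a region in an intron, 1879 bp inside the gene (chromosome X, 1850652 to 1851061), with signal 71.3 and rank 2447, that ranked 1522 in replicate 2 and again had no counterpart in replicate 1. ceh-45, a goosecoid-type gene, showed the reverse order, with pooled rank 2893 (signal 68.3, 1218 bp upstream), rank 1463 in replicate 1 and 12460 in replicate 2.

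The other 6 of the 15 best members had pooled signals between 58.8 and 67.0. ceh-82 ranked 3104 with its summit in a coding exon 199 bp inside the gene, and its place ranked 6441 in replicate 1 and 4144 in replicate 2. The best region of ceh-62 ranked 3192, lay 1206 bp upstream, and ranked 9853 and 2569 in replicates 1 and 2. At ceh-53 the best region ranked 3767, 454 bp upstream, with ranks of 16761 and 3429. The cut-class gene ceh-41 had rank 3809 in a coding exon 583 bp inside the gene, with 11637 and 6378 in the replicates. ceh-17, a Phox2-type gene of the ALA and SIA neurons, ranked 4065 at 1033 bp upstream, and its place ranked 29371 in replicate 1 but 2330 in replicate 2. For ceh-74 the best region ranked 4872 and lay 248 bp upstream, inside the gene cest-2.3, with 11284 and 3035 in the replicates. Replicate 2 gave the better rank at all 6.

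**Figure D1:**
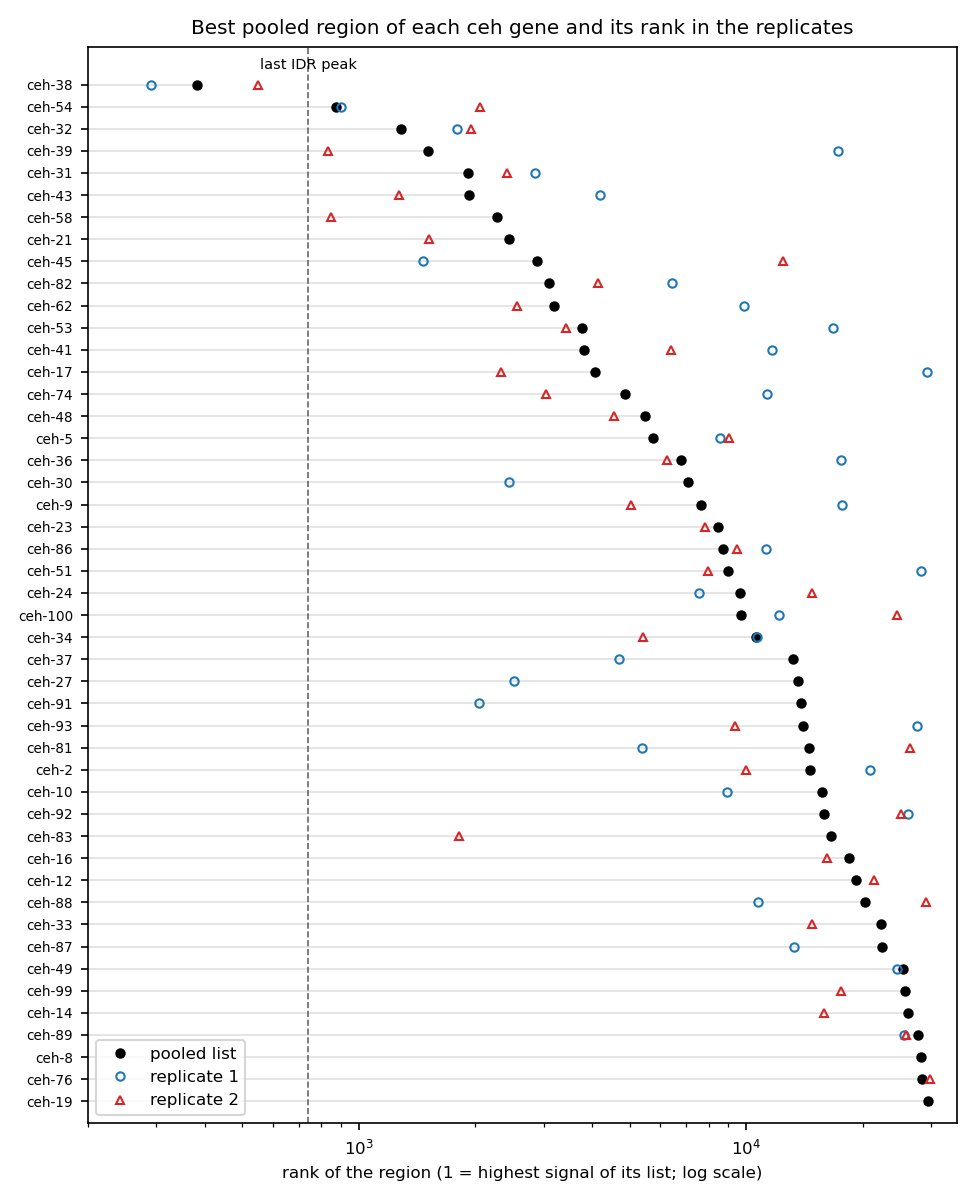
Rank of the best pooled region of each of the 47 members that have one (filled circles), with the rank of the region at the same place in replicate 1 (open circles) and replicate 2 (triangles), on a log axis where 1 is the highest signal. Only ceh-38 lies left of the dashed line at rank 741, and for many genes with pooled ranks beyond 10000 one replicate or both have no mark because no region of that list covered the summit.

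Counted over all members, 9 of 57 (15.8%, exact 95% interval 7.48 to 27.9%) had a region among the 3000 highest of the pooled list, against 10.4% of all protein-coding genes. The interval includes the share of all genes. With the 12000 highest regions the count was 26 of 57 (45.6%, interval 32.4 to 59.3%) against 31.8%, and with the whole list 47 of 57 (82.5%, interval 70.1 to 91.3%) against 56.2%. The intervals cover counting error over genes only, since genes are not biological replicates.

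Members hold more DNA of their own than the typical gene. The stretch within the assignment window that is nearer to a gene's own starts than to any other coding start had a median of 4071 bp in members, against 3180 bp in all genes. Per 10 kb of such DNA the members had 3.36 pooled regions and all genes 3.10. Among genes with at least 1 region, the best region had a median rank of 9648 in members and 10135.5 in all genes. With genes that have no region also counted, below the end of the list, the medians were 13876 in members and 24239 in all genes, a gap that includes the difference in how many have any region. The middle of the members' best ranks ran from 3788 to 17504.5 (lower and upper quartile), and that of all genes from 4221.5 to 18131.2. The median signal over the 93 regions was 39.4, against 40.5 over the regions of all genes. The members' own median over genes with a region had an SD of 1069 ranks between the replicates (n = 2). In the pooled list the gap to all genes was smaller than this SD over genes with a region. By replicate the order changed, with 10720 in members against 10299.5 in all genes in replicate 1, and 9208 against 10519.5 in replicate 2. With every gene counted, the members' median was 14487 in replicate 1 and 14787 in replicate 2, against 22818 and 23306 for all genes.

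A list of 38 homeobox genes with names outside the ceh- series was taken as a second reference. It was written from general knowledge, with earlier results of these data known. Unlike the members, it includes Hox genes and TALE cofactor genes, among them nob-1 and unc-62. It also holds the POU gene unc-86, so the 2 sets differ in make-up. In members 9 of 57 had a region among the top 3000 (15.8%), and in the other homeobox genes 14 of 38 did (36.8%, exact 95% interval 21.8 to 54.01%). The 2 intervals overlap, and the difference was not tested. The median best rank was 9648 in members with a region and 4027 in the other homeobox genes with one, or 13876 against 5054.5 with every gene counted. The members' regions had a density of 3.36 per 10 kb, against 4.95 in the other homeobox genes, whose median stretch of own DNA was longer, at 7600.5 bp.

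The 5 best of these other genes were at ranks 502 to 1063. Among them, pros-1, the Prospero-type gene, had signal 125.6 at rank 502 in an intron, with ranks of 817 and 545 in replicates 1 and 2. unc-62, which encodes a Meis-type cofactor, had signal 106.3 at rank 730, 48 bp upstream, with 655 and 1286. dve-1 ranked 792 in an intron, with 1082 in replicate 2, and no region of replicate 1 covered that summit, although replicate 1 had another dve-1 region at rank 1661. zag-1, a ZEB-type gene of neurons, ranked 971 at 3200 bp upstream, with 4458 and 787, and nob-1, a posterior Hox gene, ranked 1063 in an intron, with 1411 and 1818. The 5 best members, from ceh-38 to ceh-31, were at ranks 382 to 1916.

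**Figure D2:**
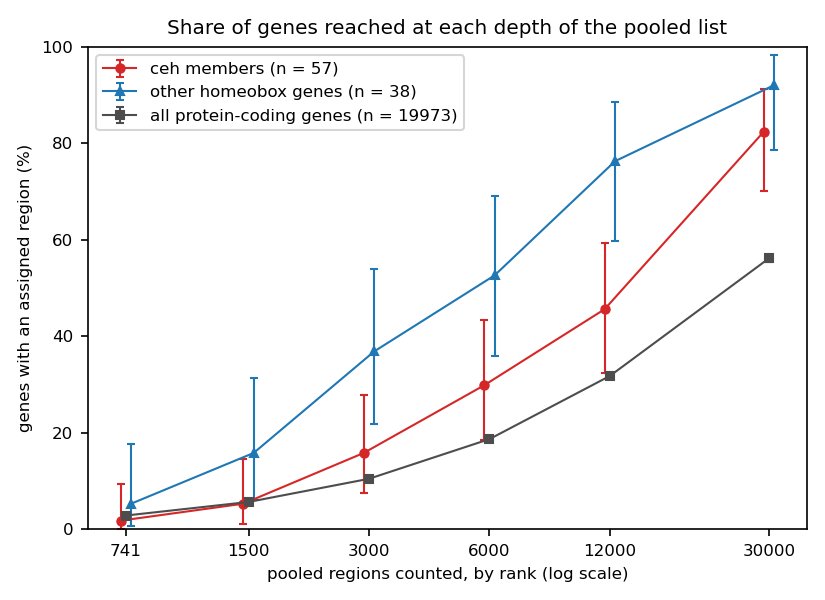
Percent of genes with at least 1 assigned region among the highest 741, 1500, 3000, 6000, 12000 and 30000 pooled regions (log axis), for the 57 members, 38 other homeobox genes and 19973 protein-coding genes, with exact 95% intervals that cover counting error only. The members stay near the line of all genes up to the top 1500 and lie above it from the top 6000 on, with 29.8% against 18.7% there, and the other homeobox genes lie highest throughout.

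The members are given next by class of homeodomain, whose best ranks overlapped widely. All 6 members classed as cut genes had a region, a set that need not hold every cut-class gene of the worm. Besides ceh-38, ceh-39, ceh-21 and ceh-41, ceh-48 had its best at rank 5484 and ceh-49 at rank 25323. Their median best rank was 3128, and 3 of the 6 were in the top 3000, against 10.4% of all genes, with too few genes to read a trait of the class from it. Cut-class genes are known to act together in the expression of genes that all neurons share.

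The 3 members classed in the sine oculis family all had regions, with 10 in total. After ceh-32, ceh-34, known from pharyngeal neurons, followed at rank 10587 (signal 46.1, 37 bp upstream), and ceh-33 at rank 22252. The 7 other members classed here as ANTP all had a region. ceh-31 and ceh-43 were followed by ceh-5, a Vax-type gene, at 5752, ceh-30, the BarH-type gene that keeps male CEM neurons alive, at 7074, and ceh-2, an Emx-type gene, at 14631. The engrailed orthologue ceh-16 stood at 18468 and ceh-12, the orthologue of HB9, at 19186. At ceh-30 the region ranked 2445 in replicate 1, while replicate 2 had none at the summit.

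The 6 members classed as paired-like each had a region, with a median best rank of 9998.5. After ceh-45 and ceh-17 came the Otx-type genes ceh-36, of the ASE and AWC neurons, at 6793 and ceh-37, of the AWB neurons, at 13204. The Chx10-type gene ceh-10 stood at 15670 and the Rax-type gene ceh-8 at 28251, a summit that no region of either replicate covered. Of the 6 members classed as NK genes only 3 had a pooled region: ceh-51, a gene of the mesoderm, at 8976, ceh-24 at 9648 and ceh-27 at 13597. The other 3, ceh-1, ceh-22 and ceh-28, had none, although ceh-22, which acts in pharyngeal muscle, had a region at rank 11173 in replicate 2. The LIM gene ceh-14 had 1 region at rank 26107.

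The classes hold 29 members and are small, so their medians are descriptions. The remaining 28 members, not classed here, had a region in 21 cases and a median best rank of 13876, from 872 for ceh-54 to 29510 for ceh-19. The 10 members without any pooled region were ceh-1, ceh-7, ceh-22, ceh-28, ceh-57, ceh-63, ceh-75, ceh-79, ceh-84 and ceh-90. Their own DNA had a median length of 4035.5 bp, against 4071 bp for all members. Of these 10, ceh-7 had a region in replicate 1 (rank 23790), ceh-22 and ceh-57 had 1 and 2 in replicate 2, and 7 had none in either list.

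By chromosome, regions were found at all 7 members on I, all 6 on III and all 4 on IV, and at 10 of 13 on II, 9 of 12 on V and 11 of 15 on X. The X members had the lowest density, 2.67 regions per 10 kb of own DNA against 3.23 to 4.03 on the other chromosomes, but 4 of the 9 members in the top 3000, namely ceh-54, ceh-39, ceh-31 and ceh-21. Of the 27 octamers in the members' own DNA, 10 lay on X. The same values over all genes were not computed by chromosome, so these counts do not set the X members apart.

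The 93 regions were unevenly spread over the 47 genes. A single region was found at 24 members, 2 at 14, 3 at 1, 4 at 6, and 7 at both ceh-32 and ceh-43. At ceh-32 the remaining 6 regions had signals from 29.1 to 38.9 and ranks from 16411 to 29577, with 1 in the promoter, 3 further upstream at 1791, 2435 and 3130 bp and 2 in introns. At ceh-43 the second region, in an intron 1388 bp inside the gene, had signal 69.1 and rank 2775, with ranks of 10828 and 4401 in replicates 1 and 2. The other 5 ranked between 8783 and 28807. Among the 93 regions 6 pairs overlapped within the same gene, with summits 199 to 270 bp apart, so these are not separate sites.

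By location, 25 of the 93 summits (26.9%, exact 95% interval 18.2 to 37.1%) lay in promoters, taken as 1 to 1000 bp upstream of a start, against 24.2% of the regions of all genes. Another 25 (26.9%) lay further upstream, against 19.6%. Introns held 23 (24.7% against 25.9%) and coding exons 17 (18.3%, interval 11.0 to 27.6%, against 27.1%). The 5′ UTR held 2 and the 3′ UTR 1. In the other homeobox genes introns held 43.7% of the regions and coding exons 10.2%. Of those 167 regions, zfh-2 had 30 and unc-62 had 17, so these shares lean on few genes.

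The signals overlapped between the classes of location. Promoter regions had the highest signal of all, 147 at ceh-38, but a median of 36.4, and distal upstream regions had a median of 46.1, with the range from 29.1 to 76.8. In introns the signals ran from 29.2 to 99.2 with a median of 39.1, and in coding exons from 29.6 to 67.0 with a median of 39.9. Another annotated gene covered 23 of the 93 summits, and another coding start lay within 1500 bp of 11. A gene for a tRNA, snoRNA, snRNA or rRNA was within 100 bp of 2, a region of ceh-2 at rank 14631 and one of ceh-43 at rank 28807. These counts of neighbours were not made over the regions of all genes, so they do not set the members apart.

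**Figure D3:**
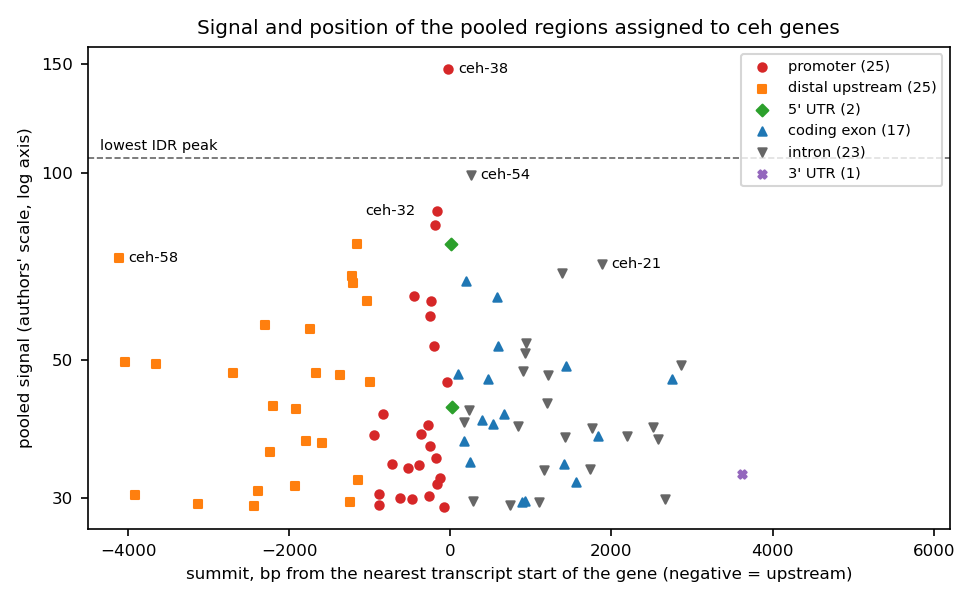
Pooled signal (log axis, the authors' scale) of the 93 regions of members against the distance of the summit from the nearest transcript start of the gene, negative upstream, with a colour and shape per location. ceh-38 at 147 is the 1 point above the dashed line at the lowest IDR signal of 105.7, and points under 50 fill every location.

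A group of 3 cut-class genes lies side by side on X. ceh-41, ceh-21 and ceh-39 all run on the minus strand, with T26C11.9 between ceh-21 and ceh-39. Their best regions had signals of 63.2, 71.3 and 82.3, all under the IDR limit, and each lay at a different kind of place: a coding exon, an intron and a promoter. Weaker regions lay in a coding exon of ceh-21 (signal 34.3, rank 21885) and 1671 bp upstream of ceh-39 (signal 47.6, rank 9624). In all 3 best regions replicate 2 ranked higher, at 6378 for ceh-41, 1522 for ceh-21 and 833 for ceh-39, against 11637, none and 17261 in replicate 1.

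An IDR peak did lie nearby. At 2639 bp upstream of ceh-39 the pooled list has a region of signal 234 and rank 181 (chromosome X, 1858606 to 1859015), which ranked 209 in replicate 1 and 164 in replicate 2. Its nearest coding start is that of T26C11.8 at 1911 bp, and the tRNA gene WBGene00023152 lies within 100 bp, so the rule gives it to T26C11.8 and not to ceh-39. In the same way an IDR peak of signal 157.6 and rank 345, 4744 bp upstream of ceh-5, lies 291 bp from the start of eat-16, a regulator of G protein signalling, with ranks of 468 and 282 in replicates 1 and 2.

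**Figure D4:**
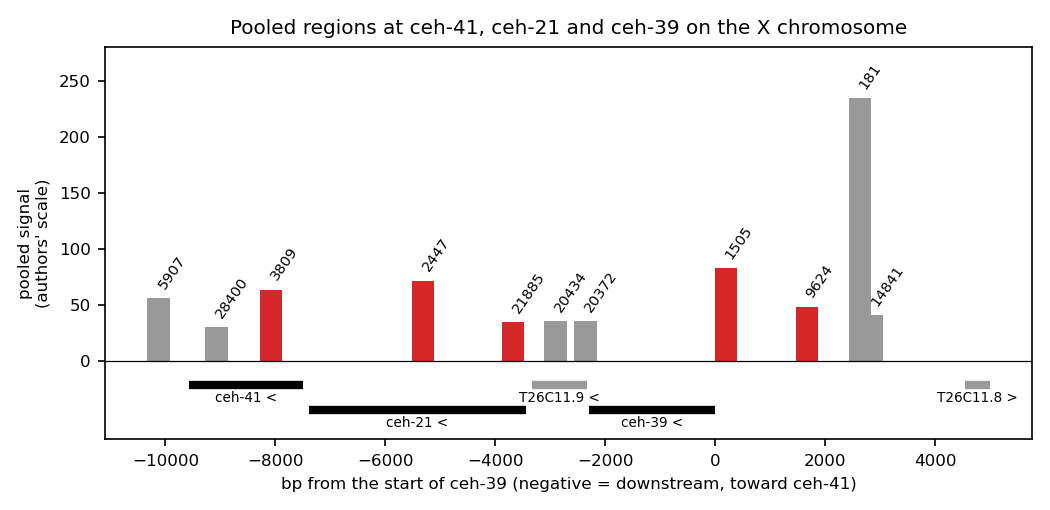
Pooled signal of the regions around ceh-41, ceh-21 and ceh-39 on X against distance from the start of ceh-39, with ranks above the bars, whose width is the width of the region. Red bars are regions assigned to the 3 ceh genes and grey bars those assigned to neighbours, and arrowheads beside gene names give the strand; T26C11.8 is drawn only as far as the plot reaches. The tallest bar, at 234, is the peak beside the tRNA gene upstream of ceh-39.

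None of the 93 pooled summits had the octamer ATGCAAAT, on either strand, within 100 bp. A count of 0 of 93 allows a share of up to 3.23%, and 1.84% of all 30000 pooled regions have the octamer, so a difference from that share was not detectable with 93 regions. Over genes, 0 of 57 members had an octamer at a pooled region, against 2.31% of all protein-coding genes. Among the other homeobox genes 2 of 167 regions had it (1.20%). With 1 mismatch allowed, 21 of 93 member regions matched (22.6%), against 26.3% in other homeobox genes and 27.6% in all genes. The median GC content of the windows was similar, at 42.8%, 43.3% and 42.3% in that order.

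The octamer itself was not missing from these genes. The DNA nearest to the members' starts holds 27 octamers in 21 genes, or 0.976 per 10 kb, against 1.10 in the other homeobox genes and 0.926 in all genes. None of the 27 lay within 100 bp of a pooled summit, which allows a share of up to 11.1%, against 6.73% of the 7761 octamers in the same kind of DNA of all genes. The median distance to a pooled summit was 1155 bp for members and 1235 bp for all genes. The 5 members with an octamer nearest to an assigned summit, chosen after their values were seen, are shown because they come closest to the signal. Each is printed with 61 bp around the octamer on the strand of the gene, the octamer or its reverse complement ATTTGCAT in capitals.
ceh-10 (chrIII:5799079-5799139, plus strand): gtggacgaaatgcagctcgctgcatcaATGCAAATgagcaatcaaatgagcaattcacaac
ceh-36 (chrX:14185445-14185505, minus strand): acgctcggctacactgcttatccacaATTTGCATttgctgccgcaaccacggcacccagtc
ceh-88 (chrIV:17327750-17327810, plus strand): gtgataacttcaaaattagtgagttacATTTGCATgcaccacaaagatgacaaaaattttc
ceh-89 (chrX:14141806-14141866, plus strand): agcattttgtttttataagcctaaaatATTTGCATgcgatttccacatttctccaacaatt
ceh-54 (chrX:6192596-6192656, minus strand): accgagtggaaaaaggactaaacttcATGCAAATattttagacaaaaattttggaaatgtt

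At ceh-10 the octamer is in a coding exon, 110 bp from a summit of signal 39.7 and rank 15670. At ceh-36 it also lies in a coding exon, 154 bp from a summit of signal 53.3 and rank 6793. The distances were 159 bp at ceh-88 (distal upstream, signal 29.5), 161 bp at ceh-89 (promoter, signal 30.2) and 194 bp at ceh-54 (intron, signal 37.6, rank 17892). The strong region of ceh-54 at rank 872 is another one. In the replicates' own lists, 2 regions of replicate 1 had the octamer within 100 bp of the summit, at ceh-36 (signal 18.5, rank 17588) and ceh-62 (signal 15.3, rank 26025), and none of replicate 2 did. Both are weak regions in the lower part of the list. They are 2.22% of the 90 member regions of replicate 1, against 1.80% of the regions of all genes in that list. In replicate 2 the share over all genes was 1.85%.

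Fewer of the members' regions were held by both replicates than by 1 or none. Of the 93 pooled summits, 44 (47.3%) lay in a region of both replicates, 21 in a region of replicate 1 alone, 22 of replicate 2 alone and 6 of neither. The share held by both was 47.9% in the other homeobox genes and 42.7% in all genes. Over the 44 shared places, Spearman's rho between the ranks of replicates 1 and 2 was 0.256, against 0.253 in the other homeobox genes and 0.367 in all genes; some overlapping regions share a replicate region, and both ranks come from places selected on the pooled reads. In 9 of the 44 (20.5%) the ranks were over 4-fold apart, against 20.8% in all genes.

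For the 47 best regions alone, 27 were held by both replicates, 7 by replicate 1, 11 by replicate 2 and 2 by neither. Replicate 2 ranked 17 of the 27 better, and none of these counts was made over all genes. Among these 27 the widest gaps were at ceh-39 (17261 in replicate 1 and 833 in replicate 2, log2 ratio 4.37), ceh-17 (29371 and 2330, log2 ratio 3.66) and ceh-45 (1463 and 12460, log2 ratio -3.09). At these 3 genes 1 replicate ranked the place far above the other. The narrowest gap among the 15 best members was at ceh-32, with a log2 ratio of -0.11.

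**Figure D5:**
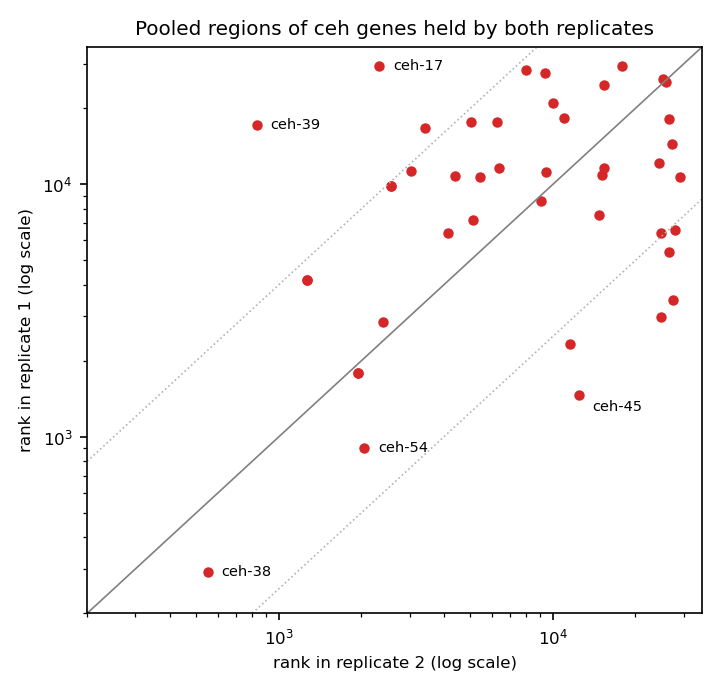
Rank in replicate 1 against rank in replicate 2 (both log axes) for the 44 pooled regions of members that both replicates hold, with the line of equal rank and dotted lines at a 4-fold difference. ceh-38 and ceh-54 lie near the lower left corner, high in both lists, while ceh-39, ceh-17 and ceh-45 lie outside the dotted lines.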

How the data were processed

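The deposited files are lists of regions on assembly ce11 for each of 2 biological replicates, for the pooled reads, and for the IDR peaks. Their values are the signal of each region as the authors' caller gave it, with 1 control per list, per the deposited text. Caller, aligner and filters are not named in the labels or that text, and depth is unknown. Signals and ranks were used to describe regions within a list only. The members and gene lists were chosen with earlier results of these data known, among them the classes and the 38 other homeobox genes, which were written from general knowledge.

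Summits were placed on Ensembl release 115 of WBcel235, the assembly that ce11 names, by the nearest transcript start of a protein-coding gene. Distances are to the annotated start, which in this worm is often a trans-splice site. Locations were taken in the order promoter, distal upstream for other summits outside the gene, coding exon, 5′ or 3′ UTR, and intron. Exon summits that were neither coding nor in a UTR by this order formed a further class, with 0.512% of the regions of all genes. The octamer had to lie whole within 100 bp of the summit. Named are the members with an IDR peak, the 15 of best rank, the 3 with the widest gap between replicates, the 10 without a region, all classed members and the 5 best other homeobox genes. No significance test was run, since 1 group allows no comparison. Shares have exact Clopper-Pearson 95% intervals for counting error only, and a count of 0 is given as 3 counts of the total. Alternatives were other thresholds, windows, rules of assignment, promoter lengths and octamer windows, and each replicate alone. The assignment and the octamer search were tested on simulated data. Work was done in Python 3.11.15 with numpy 2.4.6, pandas 2.3.3, scipy 1.17.1 and matplotlib 3.10.9.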

Additional observations from a re-analysis of the deposited data

How the results depend on the processing

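The count of 1 member with an IDR peak, ceh-38, became 0 with the top 370 pooled regions and 3 with the top 1482 (ceh-32 and ceh-54 added), and 3 when any summit in the window counted (ceh-39 and ceh-5 added). The count with a top region in both replicates became 0 at the top 370 of each and 3 with any summit in the window. Leaving out a replicate kept both counts at 1 to 1. The median best rank was 7627 with any summit in the window (all genes 7695.5). It was 9208 without replicate 1 (all genes 10519.5) and 10720 without replicate 2 (all genes 10299.5). The promoter share was 41.9% with 2000 bp promoters, 16.7% with any summit in the window, and 21.1 to 34.1% with 1 replicate left out. Members with an octamer numbered 5 within 250 bp, 16 with 1 mismatch allowed and 1 with any summit in the window (ceh-54). They numbered 0 without replicate 1 and 2 without replicate 2, against 458 and 447 of all 19973 genes. For the counts of members under other thresholds, windows or octamer settings, the share of all genes was not computed. A higher count under a looser setting is therefore not a result about the members. Windows of 2000 and 10000 bp, leaving out regions near small RNA genes, and the middle of the region as summit kept ceh-38 as the member with an IDR peak. These settings could not have removed ceh-38. Its summit lies 24 bp from the start, at the middle of its region, with no such small RNA gene within 100 bp. No paired analysis was possible because there is 1 group. Limits are the unknown depth, the unstated scale of the signal, whole embryos, and assignment by distance, which does not show which gene a region acts on.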
